A study of Mus musculus with 6 samples.

Results

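The genes described here make serine and pass its carbon through the folate cycle. They were chosen by symbol from a list of 9: Phgdh, Psat1 and Psph of serine synthesis, the serine hydroxymethyltransferases Shmt1 and Shmt2, the folate enzymes Mthfd1, Mthfd1l and Mthfd2, and the thymidylate synthase Tyms. Of these, 8 have a row among the 14495 genes of the count table, and all 8 were among the 14301 genes tested, while Phgdh was not analysed here. Messenger RNA came from male C57BL/6 mice, from their ventricles at postnatal day 14 (P14) and day 1 (P1), with no genetic or drug treatment at either age. There were 3 libraries per age, and every library pooled RNA of 3 different hearts, 9 per age. The tissue text of the labels describes ventricles with the septum and without atria, and the tissue field names the left ventricle. Total counts were 9104230 to 15725993 per library at P14 and 5916557 to 17353933 at P1.

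Serine is made from a glycolytic intermediate in 3 steps, by Phgdh, then the aminotransferase Psat1, then the phosphatase Psph. Serine hydroxymethyltransferase moves a carbon of serine onto tetrahydrofolate and leaves glycine, in mitochondria through Shmt2 and in the cytosol through Shmt1. In mitochondria Mthfd2 oxidises the folate-bound carbon and Mthfd1l releases it as formate, which Mthfd1 captures again in the cytosol for purine and thymidylate synthesis. Tyms uses this carbon to make thymidylate for DNA. In mice Mthfd2 is known as an enzyme of embryonic and dividing cells that is low in most adult tissues.

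At P14 the transcripts of nearly the whole set were lower than at P1. Psat1 was 11.6-fold lower, Mthfd1l 8.34-fold, Mthfd2 4.69-fold, Shmt1 4.46-fold and Tyms 3.42-fold lower, while Psph and Shmt2 were 1.81-fold and 1.65-fold lower and Mthfd1 did not pass the test. "Fell" and "rose" below mean lower or higher at P14 in the quasi-likelihood test of edgeR, at a Benjamini-Hochberg adjusted p under 0.05 over all 14301 genes. By that rule 7 of the 8 genes fell and 0 rose. None was higher at an unadjusted p under 0.05 either, and 0 rose in DESeq2 or in voom with limma. Over all genes tested, 22.0% fell and 21.8% rose, together 43.8%, and the median log2 fold change was −0.01, against a median of −1.97 over these 8 genes. The P14 values lay below all P1 values in 7 of the 8, and in 27.5% of all genes. Levels are given as CPM, counts scaled to a common library total that was adjusted by the trimmed mean method (TMM) of edgeR. The log2 fold changes carry a standard error (SE) over these pools. With libraries scaled by their totals alone, 5592 genes fell and 1620 rose, against 3149 and 3115 with TMM, the median of all genes moved to −0.47, and all 8 genes of the set fell, with a median of −2.43.

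The promoters of 4 of the genes are shown because they contrast the steepest falls (Psat1, Mthfd1l and Mthfd2) with Mthfd1, which did not pass. Each is the RefSeq window of GRCm38.p6 from 250 bases before to 50 after the annotated start, read 5′ to 3′ on the strand of the gene. Capitals mark the letters CCAAT or the reverse complement ATTGG.
Psat1, chr19:15925010-15925309, minus strand: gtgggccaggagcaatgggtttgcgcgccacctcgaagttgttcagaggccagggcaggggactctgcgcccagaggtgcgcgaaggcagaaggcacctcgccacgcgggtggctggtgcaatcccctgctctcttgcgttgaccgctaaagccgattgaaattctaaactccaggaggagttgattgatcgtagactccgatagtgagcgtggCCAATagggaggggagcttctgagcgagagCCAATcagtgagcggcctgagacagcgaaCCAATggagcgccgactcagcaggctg
Mthfd1l, chr10:3972825-3973124, plus strand: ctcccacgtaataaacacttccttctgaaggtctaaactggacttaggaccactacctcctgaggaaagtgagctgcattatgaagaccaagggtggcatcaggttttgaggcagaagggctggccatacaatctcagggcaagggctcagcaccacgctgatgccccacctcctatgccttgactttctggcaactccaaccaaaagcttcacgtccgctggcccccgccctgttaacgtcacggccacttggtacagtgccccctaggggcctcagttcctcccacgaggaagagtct
Mthfd2, chr6:83317555-83317854, minus strand: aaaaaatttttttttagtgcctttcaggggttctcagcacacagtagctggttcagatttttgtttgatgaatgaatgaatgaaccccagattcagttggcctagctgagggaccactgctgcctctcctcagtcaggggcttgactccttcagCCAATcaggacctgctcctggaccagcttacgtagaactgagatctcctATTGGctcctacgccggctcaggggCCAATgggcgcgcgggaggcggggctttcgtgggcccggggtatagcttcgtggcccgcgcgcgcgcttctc
Mthfd1, chr12:76254982-76255281, plus strand: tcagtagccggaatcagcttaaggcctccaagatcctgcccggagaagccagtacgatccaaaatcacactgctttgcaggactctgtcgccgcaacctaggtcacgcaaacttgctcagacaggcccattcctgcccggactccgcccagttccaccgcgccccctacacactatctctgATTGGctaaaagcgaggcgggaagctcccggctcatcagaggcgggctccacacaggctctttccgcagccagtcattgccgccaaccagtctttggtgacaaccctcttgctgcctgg

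The printed Psat1 window and the Mthfd2 window each hold CCAAT letters at 3 places, the Mthfd1 window at 1 place and the Mthfd1l window at 0 places. RefSeq gives Psat1 a second window, chr19:15924573-15924872, which holds them at 0 places and is not printed, and each other gene has 1 window. Of these 9 windows 5 hold the letters (1 each of Psat1, Psph, Shmt1, Mthfd1 and Mthfd2), as do 37.4% of all 32851 promoter windows in the table. The other motifs were searched on both strands as well. TGATGNAA, a core of the composite site of ATF4 and C/EBP factors, is in 0 of the 9 windows and in 3.97% of all windows. The E2F spellings TTTCCCGC, TTTCGCGC, TTTGCCGC and TTTGGCGC are in 0 of the 9 and in 2.26% of all. The E-box CACGTG, bound by Myc-type factors, is in 1 of the 9, that of Tyms, and in 7.15% of all. Apart from these windows no other sequence was searched, and a match is only a run of letters.

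The serine synthesis genes fell to very different degrees. Psat1 (ENSMUSG00000024640, GRCm38 chr19:15904678-15947337), which transfers the amino group that makes phosphoserine, had 7.95, 4.12 and 4.38 CPM in the 3 P14 libraries, against 66.5, 62.1 and 68.0 CPM in the 3 P1 libraries. Every P14 library was far below every P1 library, and the P1 libraries lay close together. Its log2 fold change was −3.54 ± 0.27 (SE, edgeR adjusted p = 2.89e-07), the 155th lowest value of all genes tested. Psph (ENSMUSG00000029446, chr5:129765558-129787449), the phosphatase of the last step, had 9.15, 6.24 and 5.41 CPM at P14 and 14.1, 12.4 and 11.5 CPM at P1. The ages did not overlap for Psph, but the gap was narrow, and its log2 fold change was −0.85 ± 0.26 (edgeR adjusted p = 0.0164). Without P14 replicate 2 or P14 replicate 3 the Psph call ended (edgeR adjusted p = 0.0726 and 0.0848). Exons of Psph overlap those of the chaperonin gene Cct6a on the opposite strand, and 24.6% of the 36-base windows of its transcript also occur in transcripts of that gene. Cct6a itself fell, with 46.3 ± 5.50 CPM at P14 and 113 ± 20.3 CPM at P1 (SD, n = 3 each). No source used here states if reads were counted by strand, so those of the pair may be mixed, and the part of Cct6a in the Psph values was not tested.

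**Figure D1:**
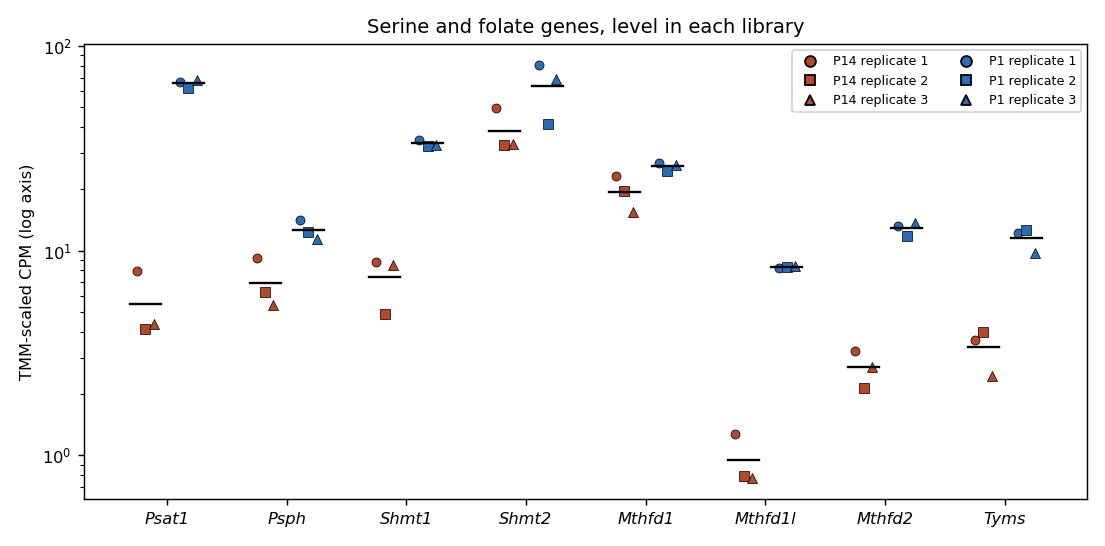
Level of each of the 8 genes in every library, in TMM-scaled CPM on a log axis. P14 libraries are red and stand left of the blue P1 libraries, marker shape gives the replicate number and the black bar is the mean of 3 libraries. Shmt2 is the gene whose ages overlap, with P14 replicate 1 at 49.5 CPM above P1 replicate 2 at 41.5 CPM.

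Both hydroxymethyltransferases fell, the cytosolic one by the larger fitted fold. Shmt1 (ENSMUSG00000020534, chr11:60788104-60811718) had 8.80, 4.91 and 8.5 CPM at P14, against 34.6, 32.6 and 32.8 CPM at P1. All P14 libraries were well below all P1 libraries, and Shmt1 fell by 2.16 ± 0.25 on the log2 scale (edgeR adjusted p = 1.15e-05). Shmt2 (ENSMUSG00000025403, chr10:127517123-127522444) had 49.5, 32.7 and 33.2 CPM at P14, against 80.9, 41.5 and 68.5 CPM at P1. Here the ages overlapped, since P1 replicate 2 was low. P14 was below P1 for all 3 replicate numbers, but the labels do not say that these numbers pair the libraries. The log2 fold change was −0.72 ± 0.26 (edgeR adjusted p = 0.0354), −0.70 with the replicate number as a block (edgeR adjusted p = 0.00439) and −1.08 with a correction for GC content and transcript length. With no block, this call ended without P14 replicate 2, P14 replicate 3, P1 replicate 1 or P1 replicate 3 (edgeR adjusted p = 0.142, 0.131, 0.135 and 0.103) and in voom with limma (0.0626). The ratio of Shmt2 to Shmt1 counts within a library, which no library scaling can change, was 5.61, 6.57 and 3.89 at P14 and 2.34, 1.27 and 2.08 at P1. This ratio was not corrected for GC content or transcript length. With that correction the fitted log2 fold changes were −1.08 for Shmt2 and −1.90 for Shmt1. The ratio was higher in all P14 libraries than in any P1 library, a log2 difference of 1.51. In the two-sided exact permutation test over samples p was 0.1, which is the smallest value that 3 against 3 libraries allow, and 0.122 after adjustment over 11 such ratios. Exons of Shmt1 and Shmt2 overlap those of Smcr8 and Ndufa4l2 on opposite strands. Neither of these neighbours passed the test (edgeR adjusted p = 0.296 and 0.648).

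Among the folate enzymes of the set, the mitochondrial Mthfd1l and Mthfd2 fell and the cytosolic Mthfd1 did not pass. Mthfd1l (ENSMUSG00000040675, chr10:3973118-4167081), the mitochondrial enzyme that releases formate, had 1.27, 0.797 and 0.773 CPM at P14, against 8.19, 8.34 and 8.42 CPM at P1. The P14 libraries rest on few reads, 18, 6 and 6 counts, against 177, 143 and 50 counts at P1. Its log2 fold change was −3.06 ± 0.33 (edgeR adjusted p = 5.80e-06). Mthfd2 (ENSMUSG00000005667, chr6:83305691-83325908), the mitochondrial dehydrogenase and cyclohydrolase, had 3.24, 2.12 and 2.70 CPM at P14, against 13.2, 11.8 and 13.6 CPM at P1. The ages were well apart, and Mthfd2 fell by 2.23 ± 0.27 on the log2 scale (edgeR adjusted p = 1.90e-05). Mthfd1 (ENSMUSG00000021048, chr12:76255298-76319803), the cytosolic enzyme with 3 activities, had 23.2, 19.5 and 15.5 CPM at P14, against 26.9, 24.6 and 26.1 CPM at P1. Its P14 libraries all lay below its P1 libraries, but the step was small, −0.41 ± 0.22 on the log2 scale (edgeR adjusted p = 0.138). With library totals alone Mthfd1 did fall, with −0.87 (edgeR adjusted p = 0.00652), and it also fell with the replicate number as a block together with a correction for GC content and length (−0.40, edgeR adjusted p = 0.0418).

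Ratios within libraries were also taken for the folate enzymes. Mthfd1l had 0.0561, 0.0441 and 0.0539 counts per count of Mthfd1 in the P14 libraries, against 0.305, 0.340 and 0.325 in the P1 libraries. The P14 ratios were all below the P1 ratios, a log2 difference of −2.66 (two-sided exact permutation p = 0.1, adjusted 0.122). Mthfd2 was also set against Mthfd2l, a paralog with the same pair of activities in mitochondria. Mthfd2l did not pass, with 2.60, 2.79 and 3.35 CPM at P14 and 3.42, 4.26 and 5.39 CPM at P1 (log2 fold change −0.56 ± 0.31, edgeR adjusted p = 0.165). It passed with library totals alone (−1.01, edgeR adjusted p = 0.0184). The ratio of Mthfd2 to Mthfd2l counts was 1.24, 0.767 and 0.811 at P14 and 3.83, 2.77 and 2.51 at P1. Hence Mthfd2 outnumbered Mthfd2l in every P1 library and in 1 of 3 P14 libraries, with a log2 difference of −1.70 (two-sided exact permutation p = 0.1, adjusted 0.122). The P14 ratios rest on few reads, 46, 16 and 21 counts of Mthfd2 and 37, 21 and 26 of Mthfd2l. Which of these genes was the more abundant at P14 is therefore not settled.

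The thymidylate synthase fell too. Tyms (ENSMUSG00000025747, chr5:30058202-30073617) had 3.66, 3.98 and 2.45 CPM at P14, against 12.1, 12.6 and 9.77 CPM at P1. The ages did not overlap, and the log2 fold change was −1.77 ± 0.28 (edgeR adjusted p = 1.64e-04). Of the 36-base windows of its transcript, 17.7% also occur in other annotated transcripts, chief among them the pseudogene Tyms-ps, so its counts may hold reads that could not be placed with certainty.

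Levels of different genes were compared per kilobase of the principal GENCODE M21 transcript. At P14 Shmt2 led with 16.8 ± 4.17 CPM per kilobase (SD, n = 3), followed by Mthfd1 with 5.98 ± 1.19, Psph with 4.0 ± 1.13, Shmt1 with 2.59 ± 0.756 and Psat1 with 2.09 ± 0.819. Below them were Mthfd2 with 1.29 ± 0.267, Tyms with 1.06 ± 0.256 and Mthfd1l with 0.256 ± 0.0756 CPM per kilobase. At P1 Shmt2 had 27.8 ± 8.82 and Psat1 25.0 ± 1.18 CPM per kilobase. Shmt1 followed with 11.7 ± 0.384, Mthfd1 with 7.98 ± 0.357, Psph with 7.29 ± 0.780, Mthfd2 with 6.18 ± 0.450, Tyms with 3.63 ± 0.479 and Mthfd1l with 2.26 ± 0.0318. Neighbours whose means lie within the sum of their SDs are, at P14, Mthfd1 and Psph, Psph and Shmt1, Shmt1 and Psat1, Psat1 and Mthfd2, and Mthfd2 and Tyms, and at P1 Shmt2 and Psat1, Mthfd1 and Psph, and Psph and Mthfd2. As a share of the summed level per kilobase of the 8 genes, Psat1 made up 5.30% to 7.03% at P14 and 25.0% to 29.7% at P1. Shmt2 made up 48.1% to 50.02% at P14 and 22.7% to 34.8% at P1.

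**Figure D2:**
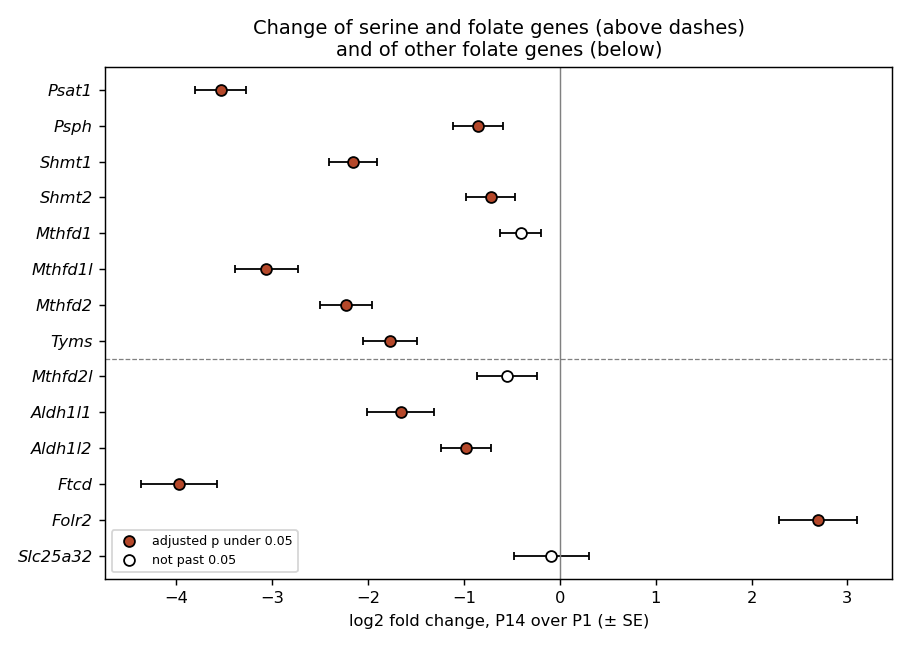
Log2 fold change of P14 over P1 for the 8 genes of serine and folate metabolism (above the dashed line) and 6 other folate genes (below it), with bars of 1 SE. Filled points passed an adjusted p of 0.05 in edgeR. Psat1 at −3.54 and Mthfd1l at −3.06 are the lowest of the set, and Folr2 lies at 2.69.

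Other folate genes were mixed. Of 15 tested genes of folate chemistry and transport, 4 fell and 2 rose while 9 were not called. Over all genes tested 22.0% fell and 21.8% rose, and these shares are the background of every list and marker count below. The 15 genes had a median log2 fold change of −0.37, but −0.22 without P1 replicate 1, −0.21 with the GC and length correction and −0.65 over the genes above 5 CPM in 3 libraries. Both formyl-tetrahydrofolate dehydrogenases fell: the cytosolic Aldh1l1 had 1.83, 2.39 and 2.19 CPM at P14 and 8.47, 4.02 and 7.75 CPM at P1 (log2 fold change −1.66 ± 0.35), and the mitochondrial Aldh1l2 fell with a log2 fold change of −0.98 ± 0.26. Ftcd, which feeds carbon of histidine into the folate pool, fell furthest in this list, with 0.563, 0.797 and 0.386 CPM at P14 and 10.9, 6.18 and 10.8 CPM at P1 (−3.97 ± 0.40). Slc25a32, the mitochondrial folate carrier, had −0.09 ± 0.39 and did not pass, with a sign that turned in 5 of 17 alternatives.

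Folr2, a folate receptor found on macrophages, had 11.3, 8.23 and 10.3 CPM at P14 and 1.3, 0.816 and 3.2 CPM at P1 and rose with a log2 fold change of 2.69 ± 0.40. Macrophage markers moved with it: 4 of 6 rose and 0 fell, with a summed level of 133 to 137 CPM at P14 and 40.1 to 44.6 CPM at P1, and their part in the Folr2 values was not tested. In these bulk samples, fewer cells of a type and less RNA per cell cannot be told apart. Cardiomyocyte markers also moved with age, 5 of 6 rising with sums of 51370 to 59167 CPM at P14 and 34848 to 38594 CPM at P1. Among erythroid markers 6 of 7 rose (2700 to 3598 CPM at P14, 468 to 986 CPM at P1), as did 4 of 6 smooth muscle and pericyte markers while 1 fell (1641 to 2009 CPM at P14, 1688 to 2580 CPM at P1). Of 6 fibroblast markers 1 rose and 0 fell (1553 to 2237 CPM at P14, 1209 to 1703 CPM at P1), and of 6 endothelial markers 1 rose and 0 fell (548 to 600.0 CPM at P14, 580.1 to 615 CPM at P1). The 6 hepatocyte markers were not analysed here. The part of these cell types in the serine and folate genes was not tested.

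Most genes of DNA precursor supply fell. Of 10 genes of thymidylate and deoxynucleotide supply, 7 fell and 0 rose, and their median log2 fold change was −1.54. None was higher at an unadjusted p under 0.05 or in DESeq2 or voom. Rrm2 and Rrm1, the subunits of ribonucleotide reductase, fell to 4.73 ± 2.12 and 14.4 ± 3.16 CPM at P14, against 62.9 ± 1.97 and 87.4 ± 4.55 CPM at P1. Dctd, the deaminase that supplies the substrate of Tyms, fell to 1.56 ± 0.449 CPM at P14, against 19.9 ± 1.11 CPM at P1 (SD, n = 3 each). Of 13 purine synthesis genes, 5 fell and 1 rose while 7 were not called, against 22.0% and 21.8% of all genes. The purine median was −0.55, or −0.28 with the GC and length correction. Prps2, which makes the ribose phosphate donor, fell with −2.32 ± 0.27 and Atic, which adds the last folate-bound carbon of the purine ring, with −1.63 ± 0.21. Pfas, an earlier enzyme of the ring, rose with 0.93 ± 0.25, a call that ended with library totals alone (edgeR adjusted p = 0.201) and without P14 replicate 2 (0.0574). Without P14 replicate 2 and P14 replicate 3, 3 and 2 purine genes fell.

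In the methionine cycle and transsulfuration list 12 genes were tested, of which 6 fell and 1 rose, against 22.0% and 21.8% of all genes. The list had a median of −0.50, or −0.83 without P1 replicate 1. Mtap, which salvages methionine from methylthioadenosine, fell with −1.28 ± 0.21, Mat2b, a regulatory subunit of methionine adenosyltransferase, with −0.81 ± 0.19, and Pemt, a phospholipid methyltransferase, with −1.08 ± 0.36. Mtr, the methionine synthase that takes its carbon from methyl-tetrahydrofolate, rose to 26.0 ± 2.22 CPM at P14, against 16.4 ± 2.94 CPM at P1 (log2 fold change 0.67 ± 0.22, edgeR adjusted p = 0.0219). The Mtr call ended with library totals alone (0.528) and without P14 replicate 2 (0.0970) or P1 replicate 1 (0.105). The Pemt call ended without any of P14 replicate 2, P14 replicate 3, P1 replicate 1 and P1 replicate 3 (0.0704 to 0.106). It also ended in voom with limma (adjusted p = 0.0885). The ages overlapped for Pemt, with P14 replicate 1 at 3.80 CPM above P1 replicate 2 at 3.56 CPM. Falls in the list numbered 2, 3 and 2 without P14 replicate 2, P14 replicate 3 and P1 replicate 3. Of the 3 tested genes of the glycine cleavage system, which makes the same folate-bound carbon from glycine, 0 fell and 0 rose in edgeR, DESeq2 or voom, and 0 had an unadjusted p under 0.05. Amt had 7.70 ± 1.99 CPM at P14 and 5.14 ± 0.367 CPM at P1, Gcsh 34.4 ± 4.95 and 27.9 ± 2.11 CPM, and Dld 219 ± 30.5 and 199.9 ± 70.0 CPM. All 3 rose when GC content and transcript length were corrected for, and 1 rose without P1 replicate 2. Gldc was not analysed here.

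Genes listed under serine and glycine transport and breakdown were lower in part. Of 16 tested genes 7 fell and 1 rose while 8 were not called, against 22.0% and 21.8% of all genes. The median log2 fold change of the list was −0.36, or −0.55 over genes above 5 CPM in 3 libraries. Without P14 replicate 2, 4 of its genes fell and 0 rose. The neutral amino acid transporter Slc38a1 had 20.0, 16.5 and 24.3 CPM at P14 and 57.0, 82.6 and 70.6 CPM at P1. Serinc5 and the serine transporter Slc1a4 fell with −1.19 ± 0.26 and −0.93 ± 0.28. Slc1a4 did not pass without P14 replicate 2 or P14 replicate 3 (edgeR adjusted p = 0.0571 and 0.0602). Sdsl, related to serine dehydratase, rose with 0.83 ± 0.26, a call that ended with library totals alone (edgeR adjusted p = 0.352), without P14 replicate 2 (0.110) and with the GC and length correction (0.557).

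Genes of the amino acid response changed in both directions. ATF4, a transcription factor known to induce Psat1, Shmt2, Mthfd2 and Asns when amino acids are short, had Atf4 mRNA at 151, 119 and 116 CPM at P14 and 151, 135 and 126 CPM at P1. The ages overlapped and Atf4 did not pass (log2 fold change −0.10 ± 0.19, edgeR adjusted p = 0.715). The amount and activity of the ATF4 protein were not measured. Of 14 tested genes of this list 4 fell and 6 rose while 4 were not called, against 22.0% and 21.8% of all genes. The list had a median of 0.25. The sign of this median depended on the processing. It was −0.22 with library totals alone, −0.11 over genes above 5 CPM in 3 libraries and −0.07 with the GC and length correction, or −0.06 with the block as well. Leaving out 1 library moved it from 0.13 without P14 replicate 1 to 0.42 without P1 replicate 1. Those that fell act in amino acid supply: the asparagine synthetase Asns fell with −1.60 ± 0.28, the large neutral amino acid transporter Slc7a5 with −2.61 ± 0.29, and the proline synthesis genes Aldh18a1 and Pycr1 with −1.69 ± 0.22 and −1.49 ± 0.33. Those that rose include the stress-associated Nupr1, with 13.7, 12.7 and 13.01 CPM at P14 and 1.43, 1.11 and 1.85 CPM at P1. Chac1, which degrades glutathione, had 121, 39 and 51 counts at P14, against 2, 0 and 1 counts at P1, and no fold is given because its P1 level rests on 3 counts. Atf5, Ddit3, Stc2 and Ddit4 rose with log2 fold changes of 1.60, 1.62, 1.75 and 1.47. These 4, with Aldh18a1 and Pycr1, were named after their values were seen.

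**Figure D3:**
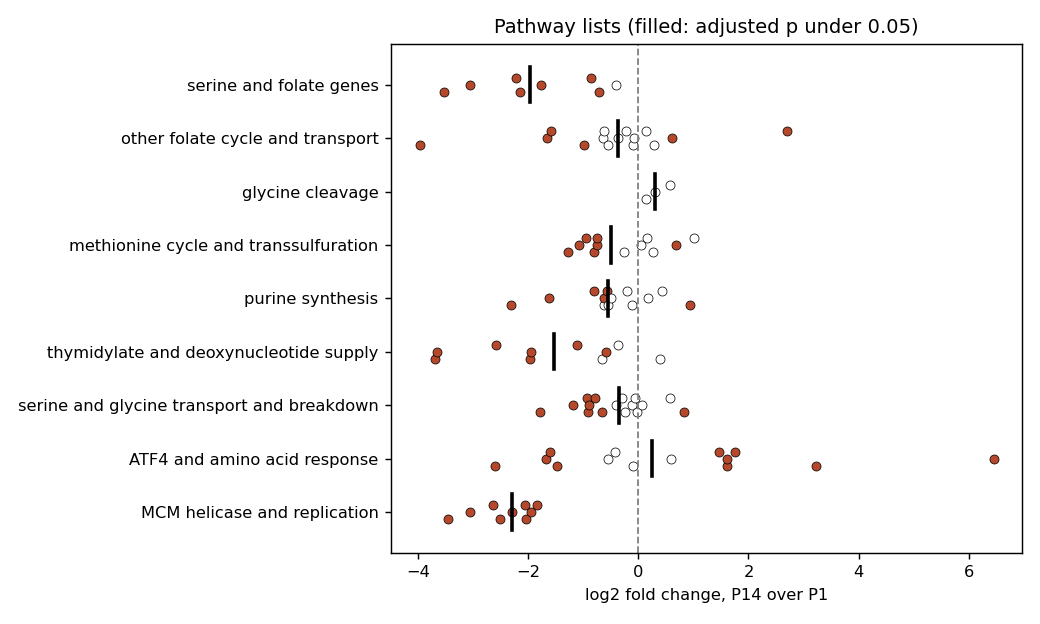
Log2 fold change of P14 over P1 for each tested gene of the 9 pathway lists, with the median of each list as a black bar and the median of all genes as a dashed line at −0.01. Filled points passed an adjusted p of 0.05 in edgeR. The serine and folate genes, with a median of −1.97, lie between the thymidylate and deoxynucleotide list at −1.54 and the helicase and replication list at −2.30, and the amino acid response list spreads to both sides.

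The falls were set against those of replication genes, since folate-bound carbon is drawn on when DNA is copied. All 9 genes of the MCM helicase and replication list fell, and 0 rose in any of the 3 tools or at an unadjusted p under 0.05. Their median log2 fold change was −2.30, with Top2a, the topoisomerase of dividing cells, at −3.46 ± 0.26, the proliferation marker Mki67 at −3.06 ± 0.24 and Mcm6 at −2.64 ± 0.27. The 6 subunits of the MCM helicase were summed in each library, and each gene of the set was divided by that sum. The proportion of Mthfd2 differed by less than the spread between libraries, with 0.0468, 0.0525 and 0.0587 at P14 and 0.0432, 0.0473 and 0.0608 at P1 (log2 difference 0.07, two-sided exact permutation p = 0.8, adjusted 0.800). Shmt1 overlapped likewise, with 0.126, 0.119 and 0.181 at P14 and 0.113, 0.130 and 0.146 at P1 (log2 difference 0.12, p = 0.7 in the two-sided exact permutation test, adjusted 0.770). With 3 libraries per age these p-values do not show that the proportions are alike.

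Relative to the helicase sum, Psat1 and Mthfd1l were lower at P14. Psat1 had 0.114, 0.10 and 0.0941 counts per MCM count at P14, against 0.217, 0.248 and 0.302 at P1, a log2 difference of −1.31, and Mthfd1l had a log2 difference of −0.77. The remaining 4 genes were higher relative to the sum: Tyms had a log2 difference of 0.55 (0.26 without P14 replicate 2), Psph of 1.43, Shmt2 of 1.63 and Mthfd1 of 1.89. The MCM subunits themselves fell, with log2 fold changes from −2.64 for Mcm6 to −1.84 for Mcm7. A gene of unchanged level is therefore also higher relative to their sum, and the median of all genes was −0.01. The higher ratios show only that these 4 genes fell less than the helicase sum. For Psat1, Mthfd1l and these 4 genes the ages did not overlap. For each, p was 0.1 in the two-sided exact permutation test (adjusted 0.122), the smallest value possible. The share of all tested genes whose ratio to this sum separates the ages was not computed. The lack of overlap is therefore not shown to be particular to these genes.

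**Figure D4:**
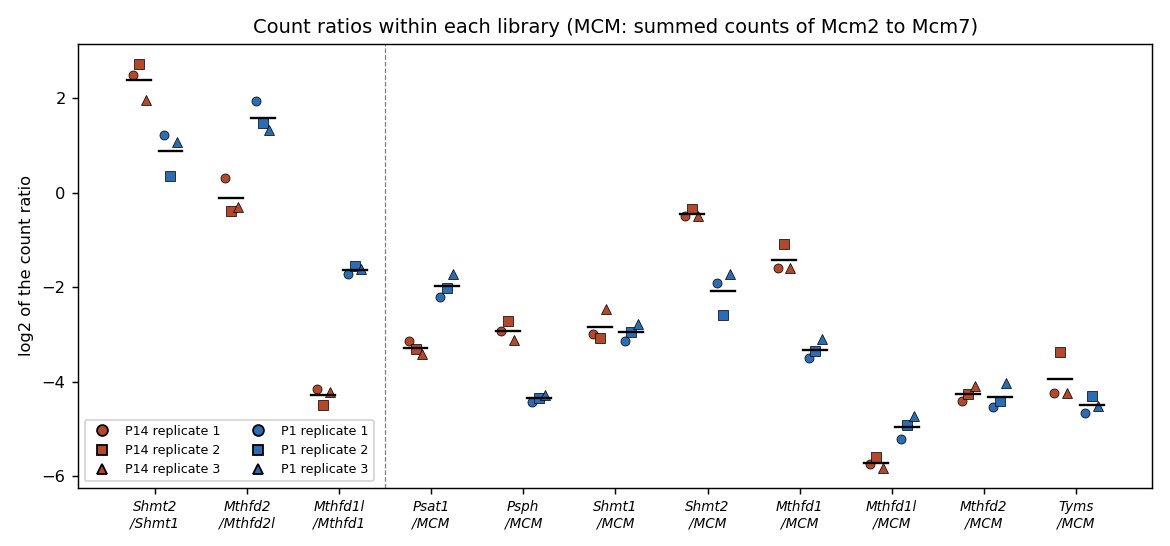
Log2 of count ratios within each library, with P14 in red left of P1 in blue and the mean as a black bar. Left of the dashed line are pairs of related enzymes, and right of it each of the 8 genes over the summed counts of Mcm2 to Mcm7. The ratio of Shmt2 to Shmt1 is higher at P14, those of Mthfd2 to Mthfd2l and Mthfd1l to Mthfd1 are lower, and Shmt1 and Mthfd2 over MCM overlap.

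The genes most like Mthfd2 over the 6 libraries, by Pearson correlation of log2 CPM among tested genes of at least 10 CPM, were Racgap1, which acts in cytokinesis, and the cell adhesion gene Mcam, both with r = 0.999. For Tyms they were the splicing factor Srsf7 with r = 0.998 and Dact3 with r = 0.9945. These correlations rest on 6 libraries that differ by age and in depth, and all genes share these libraries, so that genes lower at P14 by a steady amount all score highly. Racgap1 fell with a log2 fold change of −4.10 and Mcam with −1.86, Srsf7 with −1.01 and Dact3 with −0.90.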

How the data were processed

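The authors deposited gene-level counts, unnormalised whole numbers, of 6 poly(A)-selected libraries that were sequenced for 36 cycles on a Genome Analyzer IIx per the labels' protocols. Per the submitters' processing notes the builds were GRCm38 and mm10, and bedtools and edgeR 3.2.4 are named without a role. The sources used here do not give the aligner, counter, strand setting or annotation. The smallest total of a gene in the table is 60.

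Columns were tied to samples by age and replicate number, and genes to GENCODE M21 by Ensembl identifier (98.8% found). In R 4.3.3, edgeR 4.0.16 kept genes with filterByExpr (minimum count 10), scaled by TMM and compared P14 with P1 by the robust quasi-likelihood F-test (model term: age), two-sided, adjusted by Benjamini-Hochberg over all genes. The common biological coefficient of variation was 23.0%. SE is the log2 fold change over the root of its F statistic. Count ratios had 0.5 added to both counts. No set test was run. The shallowest library is P1 replicate 3, and p-values cover the spread between pools.

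The members and lists were chosen with earlier results of these data known. The text names all members, 10 further fixed genes, up to 3 called genes of largest change per pathway list (mean of at least 5 CPM at either age), 1 against its main direction, and the 2 genes most like Mthfd2 and Tyms. Other genes were named after their values were seen. Of the fixed genes 2 are not reported here. Ratios to Phgdh and genes most like it could not be computed.

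Same-number libraries of the 2 ages correlated in their deviations from the group means (0.295, 0.112 and 0.102, against −0.214 to 0.09 for other pairs). They pass a rule of over 0.1, but 0.112 and 0.102 do so narrowly. This does not establish that the numbers pair the libraries, and the labels do not say so. The main fit therefore had no block. Alternatives were DESeq2 1.42.0 and its size factors, library totals, upper quartile scaling, leaving out mitochondrial and the 10 most abundant genes, no filter, over 5 CPM in 3 libraries, voom with limma 3.58.1, the replicate block, an adjusted p under 0.01, leaving out each library and, added after the data were seen, a spline correction (4 degrees of freedom) for transcript GC content and length with and without the block.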

Additional observations from a re-analysis of the deposited data

How the results depend on the processing

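Of the 8 genes, 5 (Psat1, Shmt1, Mthfd1l, Mthfd2 and Tyms) kept their direction and call under all 18 alternatives. The log2 fold change ranged from −3.98 to −3.26 for Psat1, −2.61 to −1.90 for Shmt1, −3.51 to −2.94 for Mthfd1l, −2.68 to −2.03 for Mthfd2 and −2.24 to −1.47 for Tyms. The number of members that fell was 7, was 5 to 7 when 1 library was left out, 5 at an adjusted p under 0.01, and 7 with the replicate block, which changed no call of the named genes.

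Over all genes 5592 fell and 1620 rose with library totals alone, and 2025 fell at an adjusted p under 0.01. With the replicate block 3435 fell and 3561 rose. Other folate genes numbered 7 falls and 1 rise with library totals, and 1 rise with upper quartile scaling, with the GC and length correction with or without the block, at 0.01 and without any 1 library (1 to 1). Methionine genes numbered 2 falls and 0 rises at 0.01, 0 rises with totals, 3 rises with the GC and length correction with or without the block, and 2 to 6 falls and 0 to 2 rises without 1 library. Purine genes numbered 9 falls and 0 rises with totals, 2 falls at 0.01, 2 rises with the block and GC correction, and 2 to 6 falls and 0 to 1 rises without 1 library. Serine and glycine transport genes numbered 0 rises with totals, at 0.01 and with the GC correction with or without the block, and 4 to 7 falls and 0 to 1 rises without 1 library. Glycine cleavage genes numbered 3 rises and deoxynucleotide genes 1 rise with the GC correction with or without the block, and 0 to 1 without 1 library for each list. The causes of these shifts were not tested.

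The sign of Slc25a32 turned with the replicate block (0.023), the GC correction (0.244), both together (0.281) and without 1 library (−0.343 to 0.402). Without 1 library the log2 difference over MCM ranged from −0.073 to 0.23 for Shmt1 and from −0.033 to 0.214 for Mthfd2, with the reversals without P14 replicate 3 for both and also without P1 replicate 1 for Mthfd2. The other 9 ratios kept their direction without any 1 library and with a prior of 2 counts, though Tyms over MCM ranged from 0.257 to 0.696 without 1 library. No ratio was corrected for GC content or transcript length. Mthfd1l at P14 rests on 6 to 18 counts per library, which limits its precision.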
